A study of Mus musculus with 18 samples.

Results

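Sebaceous glands are the lipid-secreting glands that open into hair follicles. The genes described here encode enzymes that build the fatty acids, fatty alcohols, waxes and esters of sebum, together with a receptor, Mc5r, through which melanocortin peptides act on these glands. The list holds 10 genes, chosen by name as genes of sebaceous lipid synthesis, with earlier results of these data known. They are the desaturases Scd1, Scd2 and Scd3, the elongase Elovl3, the fatty acid hydroxylase Fa2h and the fatty acyl reductase Far2. The others are the acyltransferases Awat2, Dgat2 and Soat1, and Mc5r. Of the 10 genes, 8 had a probe set with their symbol on the array, 1 probe set each, among 19505 genes measured. Scd2 and Soat1 had no probe set under their symbols and have no values here.

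The arrays were Clariom S mouse arrays, which report 1 intensity per probe set, and there were 18 of them. The 6 groups of 3 were lncKO, miR-205 KO and wild-type skin, and lncKO, miR-205 KO and wild-type pituitary. The sample titles give the genotypes only as wt, lncKO and miR-205 KO. The lncKO mice are taken here to lack the long noncoding RNA made from MIR205HG, and the miR-205 KO mice the microRNA of that locus. Every mouse is labelled C57BL/6, female and 5 to 6 weeks old, with no treatment, and the sources used here do not say how the alleles were made. Arrays are called by their label numbers, which are 4 to 6 for lncKO skin, 7 to 9 for miR-205 KO skin, 1 to 3 for wild-type skin, 13 to 15 for lncKO pituitary, 16 to 18 for miR-205 KO pituitary and 10 to 12 for wild-type pituitary. The labels do not say that the samples of a group are separate mice, so each p-value rests on a spread among samples that may be only technical.

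The tissue labels were set against defining genes. Krt5, a keratin of basal epidermis, lay between 64494 and 88378 in skin and between 7 and 14 in pituitary. Krt79, a keratin of the sebaceous duct, lay between 47927 and 91330 in skin and between 13 and 21 in pituitary. Gh, the growth hormone gene, lay at 76 or less on every skin array except wild type 1, where it was 2501, and between 817571 and 966812 in pituitary. The extraction text speaks of a piece of ear for all samples, pituitary included. Genes of the Y chromosome went against the sex label in pituitary only: Uty was between 6 and 13 on the skin arrays and between 1869 and 2339 on the pituitary arrays. Tissue and sex therefore cannot be told apart in any difference between skin and pituitary.

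The microRNA that the miR-205 KO removes is shown because its absence defines that genotype; the mature sequences are from RefSeq (GRCm38.p6), written 5′ to 3′ with the seed, bases 2 to 8, in capitals. The 5p arm lies at chr1:193507503-193507524 and the 3p arm at chr1:193507467-193507488, both on the minus strand. No probe set named here measures either arm, so the genotypes here rest on the titles alone.
mmu-miR-205-5p: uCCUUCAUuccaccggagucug
mmu-miR-205-3p: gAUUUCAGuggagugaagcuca

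The promoters of the 2 genes that passed the test in both knockout skins, Scd3 and Far2, are shown next. Each window runs from 250 bases before to 50 bases after the RefSeq start site in GRCm38.p6. The Scd3 window is chr19:44203038-44203337 on the plus strand and the Far2 window is chr6:148047166-148047465 on the plus strand. Capitals mark the letters that matched 1 of 5 motifs searched on both strands: TATAAA for the TATA box, CCAAT for the box of that name, CACGTG for the E-box, GGGCGG for the GC box and AGGTCA for the half-site of nuclear receptors.
Scd3: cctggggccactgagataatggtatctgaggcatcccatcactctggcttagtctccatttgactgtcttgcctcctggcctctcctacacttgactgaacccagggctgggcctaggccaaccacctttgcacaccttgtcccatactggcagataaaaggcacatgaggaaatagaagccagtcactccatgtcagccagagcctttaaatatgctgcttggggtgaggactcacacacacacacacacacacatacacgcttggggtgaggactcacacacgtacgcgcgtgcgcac
Far2: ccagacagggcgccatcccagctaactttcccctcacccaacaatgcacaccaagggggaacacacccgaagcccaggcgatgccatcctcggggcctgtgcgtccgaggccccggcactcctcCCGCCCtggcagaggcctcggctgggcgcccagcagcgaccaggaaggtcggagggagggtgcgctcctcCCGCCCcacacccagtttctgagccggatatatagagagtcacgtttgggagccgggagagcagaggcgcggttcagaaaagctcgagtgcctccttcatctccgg
The Far2 window held 2 GC boxes, at -126 and -56 from the start site, both on the strand opposite to the gene, and the Scd3 window held none of the 5 motifs. Of 32851 promoter windows of this length, 35.7% held a GC box, 13.6% a TATA box, 37.4% CCAAT, 7.2% an E-box and 16.3% a half-site. The Far2 window was 66.0% G and C with 21 CpG pairs and the Scd3 window 54.0% with 6 CpG pairs, against a median of 52.7% and 7 over all windows. The promoter table held 4 of the 10 genes, these and Awat2 and Soat1. The motif matches are letters in these windows and say nothing of which factors bind there.

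In skin, the desaturase gene Scd3 and the reductase gene Far2 were higher in both knockouts than in wild type, and none of the other 6 measured members passed the test. Scd3 was 18.8-fold higher in lncKO skin and 14.1-fold higher in miR-205 KO skin, and Far2 was 1.88-fold and 1.60-fold higher in lncKO and miR-205 KO skin. Scd1, the most studied desaturase of mouse sebaceous glands, was above wild type on all 3 arrays of each knockout but missed the threshold. In pituitary none of the 8 passed in any comparison. All differences are log2 intensities of the first named group minus the second, with standard errors and Benjamini-Hochberg adjusted p-values from limma over 19572 probe sets, 3 arrays per group and a threshold of 0.05.

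**Figure D1:**
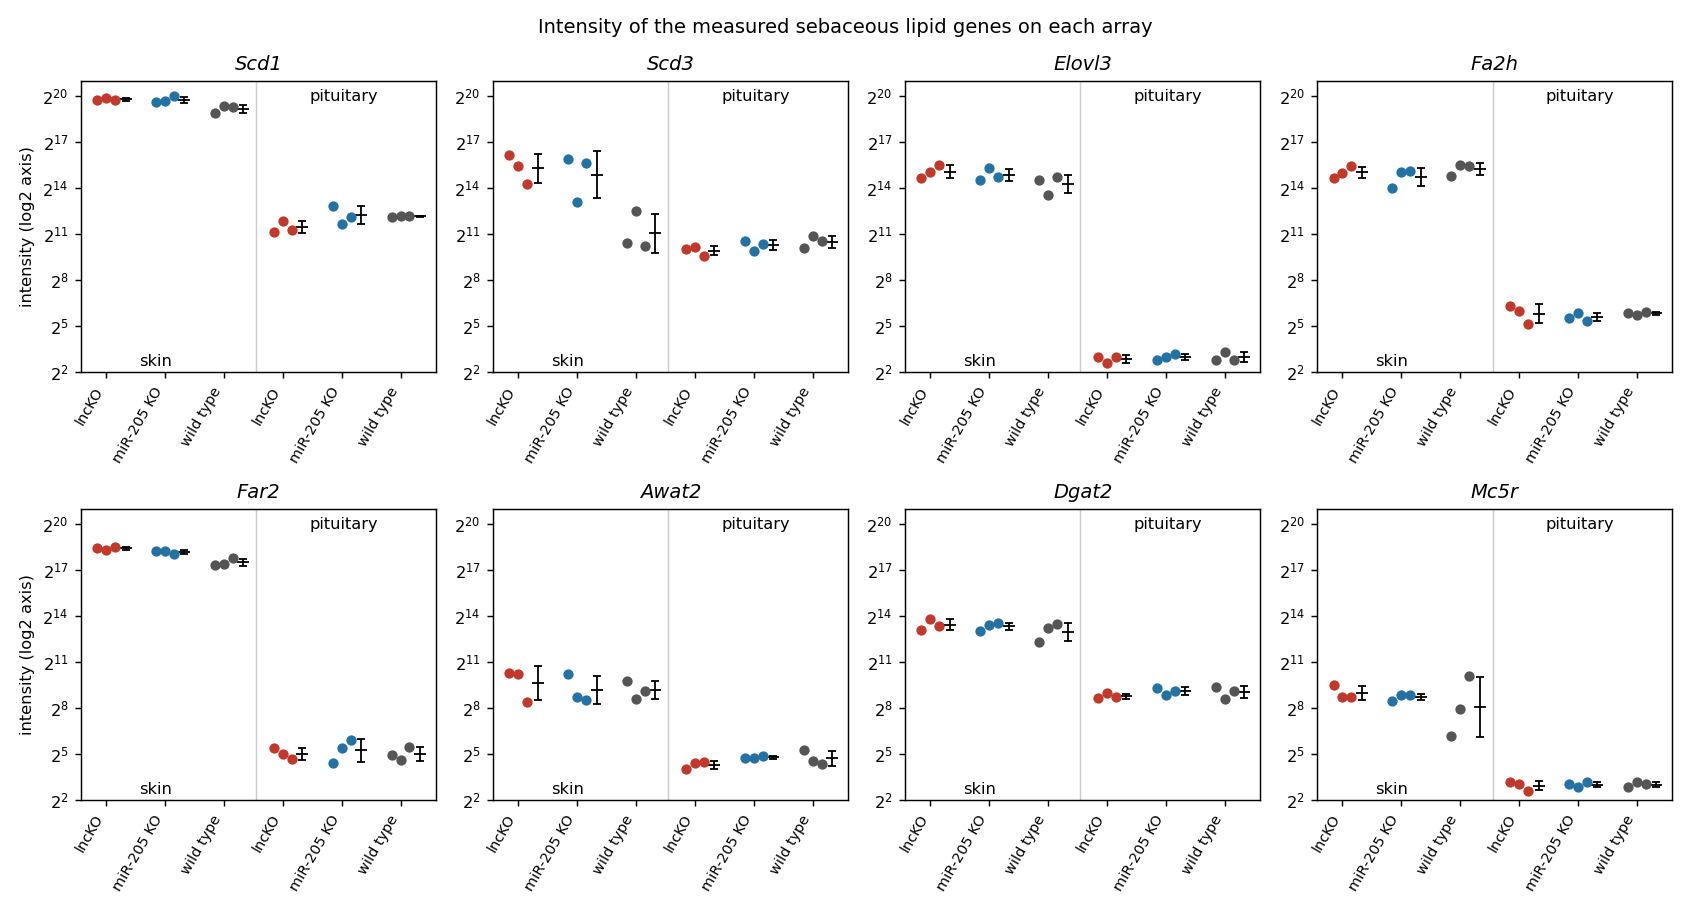
Intensity (vertical axis, log2 scale) of each of the 8 genes on each array, with lncKO, miR-205 KO and wild type from left to right in skin and then in pituitary. Points are arrays, and the black bar beside each group is its mean log2 intensity ± SD (n = 3). Scd3 stands between 8746 and 74498 on the 6 knockout skin arrays and between 1220 and 5836 on the 3 wild-type skin arrays.

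Of the 8 genes, 2 were higher and 0 were lower in lncKO skin than in wild-type skin, where 6.21% of all probe sets were called higher and 9.17% lower. In miR-205 KO skin 2 were higher and 0 lower, where 6.79% of all probe sets were called higher and 10.0% lower. The median log2 fold change of the 8 was 0.71 in lncKO skin and 0.58 in miR-205 KO skin, beside -0.07 over all probe sets in each. The list was chosen with earlier results of these data known. The counts, medians and ranks of its members therefore describe the list and do not test it. For 3 of the 8, Scd1, Scd3 and Far2, all 3 knockout arrays lay above all 3 wild-type arrays, in lncKO skin (13.3% of all probe sets did so) and in miR-205 KO skin (14.9%). Both knockouts were set against the same 3 wild-type arrays, so their fold changes are not independent of each other. In whole tissue, a change in the number of sebocytes and a change in the RNA per sebocyte cannot be told apart.

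Desaturases put a double bond into saturated fatty acids made in the cell, and mouse skin has several of them. Scd3, which is known in mouse mainly from sebaceous tissue of skin and from the Harderian gland, was measured at 74498, 44442 and 19617 in lncKO skin. It was 61748, 8746 and 50928 in miR-205 KO skin and 1367, 5836 and 1220 in wild-type skin. Every knockout array lay above every wild-type array, and the closest pair was miR-205 KO 8 at 8746 and wild type 2 at 5836. The spread inside groups was wide: the highest array was 3.80 times the lowest in lncKO skin, 7.06 times in miR-205 KO skin and 4.78 times in wild-type skin. The log2 fold change was 4.23 ± 0.74 in lncKO skin (adjusted p = 0.00299, limma) and 3.82 ± 0.74 in miR-205 KO skin (adjusted p = 0.00501, limma). In both comparisons this was the largest positive log2 fold change of the 19572 probe sets, rank 1 by size with no regard to its error. With any single array left out, the log2 fold change of Scd3 was between 3.79 and 4.96 in lncKO skin and between 3.31 and 4.72 in miR-205 KO skin, past the threshold throughout. With intensities below 16 set to 16 in the whole table, the miR-205 KO value was the same but missed the threshold (adjusted p = 0.0606, limma).

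In wild-type skin the level of Scd3 did not stand clear of pituitary. Pituitary arrays read 1045, 1126 and 771 in lncKO, 1487, 964 and 1310 in miR-205 KO and 1078, 1883 and 1503 in wild type. Wild-type skin minus wild-type pituitary was 0.56 ± 0.62 (adjusted p = 0.489, limma), with overlapping arrays and an interval from -0.73 to 1.85 (95%), and its sign turned without wild-type skin 2. Of the 9 skin arrays, the 6 knockout arrays and wild type 2 lay above every pituitary array. Scd3 was thus the only measured member that did not separate the tissues in wild type, and it separated them on every knockout array. The knockout effect in skin minus that in pituitary was 4.82 ± 0.87 for lncKO (adjusted p = 0.00214, limma) and 4.05 ± 0.87 for miR-205 KO (adjusted p = 0.00675, limma).

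Scd1, whose loss in mice leaves shrunken sebaceous glands and a poor coat, read 895653, 985469 and 879750 in lncKO skin. It was at 797881, 835993 and 1045541 in miR-205 KO skin and at 487900, 671356 and 652155 in wild-type skin. All knockout arrays again lay above all wild-type arrays. The log2 fold change was 0.62 ± 0.22 in lncKO skin (adjusted p = 0.0716, limma) and 0.57 ± 0.22 in miR-205 KO skin (adjusted p = 0.0917, limma), which misses the threshold in each. These intensities were between 50.7% and 85.4% of the brightest probe set on the same array, where Scd1 ranked between 8 and 16, and how far the scale is compressed there was not tested. The size was sensitive to scaling: after quantile normalization between arrays it was 0.11 in lncKO skin and 0.07 in miR-205 KO skin.

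In pituitary, Scd1 was present at lower intensity and leaned the other way in lncKO. It read 2300, 3778 and 2452 in lncKO, 7378, 3268 and 4554 in miR-205 KO and 4412, 4751 and 4600 in wild-type pituitary. The 3 lncKO arrays lay below the 3 wild-type arrays (-0.73 ± 0.28, adjusted p = 0.308, limma), without passing the test. The share of all probe sets that separated in this way was not counted. The difference between the lncKO effect in skin and in pituitary was 1.35 ± 0.36 (adjusted p = 0.0233, limma), and for miR-205 KO it was 0.51 ± 0.36 (adjusted p = 0.397, limma). The lncKO value missed the threshold after quantile normalization (0.90, adjusted p = 0.134), without lncKO pituitary 13 (1.21, adjusted p = 0.0632) and without lncKO pituitary 15 (1.26, adjusted p = 0.0584).

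The Scd genes form a cluster on chromosome 19, where RefSeq orders them Scd3, Scd2, Scd4 and Scd1. Scd4, the remaining measured gene of the cluster, read between 7 and 14 on all 9 skin arrays, with log2 fold changes of -0.11 ± 0.27 in lncKO skin (adjusted p = 0.811, limma) and 0.07 ± 0.27 in miR-205 KO skin (adjusted p = 0.894, limma). Outside the desaturases, the measured neighbours on either side were Cwf19l1, Bloc1s2, Pkd2l1, Wnt8b, Sec31b and Ndufb8. Of these only Cwf19l1 in lncKO skin passed, and it was lower (-0.90 ± 0.23, adjusted p = 0.0196, limma). None of them was higher past the threshold in either knockout skin.

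Far2 reduces long fatty acyl chains to the fatty alcohols from which wax esters are made. It read 355974, 326061 and 365554 in lncKO skin, 309532, 313647 and 271770 in miR-205 KO skin and 167775, 173467 and 220590 in wild-type skin. All arrays of each knockout lay above all 3 wild-type arrays. The log2 fold change was 0.91 ± 0.21 in lncKO skin (adjusted p = 0.0118, limma) and 0.68 ± 0.21 in miR-205 KO skin (adjusted p = 0.0391, limma). The lncKO value missed the threshold after quantile normalization (0.63, adjusted p = 0.0674). The miR-205 KO value lay near the threshold and missed it after quantile normalization (0.36, adjusted p = 0.279), with only both groups in the fit (adjusted p = 0.0563) or all 18 arrays (adjusted p = 0.105), without wild type 1 or 2 (adjusted p = 0.097 and 0.106) and without any of the 3 miR-205 KO arrays (adjusted p between 0.0616 and 0.114). On the pituitary arrays Far2 lay between 21 and 59 in every genotype.

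Awat2 joins fatty alcohols to acyl chains as wax esters and is best known from the meibomian glands of the eyelid, which are specialised sebaceous glands. It read 1244, 1167 and 326 in lncKO skin, 1198, 423 and 365 in miR-205 KO skin and 849, 387 and 557 in wild-type skin. The groups overlapped fully. The log2 fold change was 0.46 ± 0.53 in lncKO skin (adjusted p = 0.594, limma) and 0.01 ± 0.53 in miR-205 KO skin (adjusted p = 0.998, limma). The intervals, from -0.68 to 1.60 and from -1.14 to 1.15 (95%), hold no difference and differences of over 1 log2 unit alike.

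Elovl3 lengthens saturated and monounsaturated chains in sebaceous glands and hair follicles, and mice without it have a sparse coat. It read 26015, 33715 and 46438 in lncKO skin, 23600, 40931 and 27295 in miR-205 KO skin and 23301, 12225 and 26693 in wild-type skin. The lowest knockout arrays lay among the wild-type arrays. The log2 fold change was 0.81 ± 0.33 in lncKO skin (adjusted p = 0.114, limma) and 0.60 ± 0.33 in miR-205 KO skin (adjusted p = 0.229, limma). On the pituitary arrays it was between 6 and 10, below 16, an intensity that 22.8% to 25.3% of an array's probe sets did not exceed.

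Fa2h adds a hydroxyl group to the fatty acids of sphingolipids, and in mice its loss changes sebum and hair. It read 26132, 32708 and 43998 in lncKO skin, 16895, 33492 and 35864 in miR-205 KO skin and 28576, 45911 and 45269 in wild-type skin. It was the only measured member with a negative log2 fold change in both knockouts, -0.22 ± 0.32 in lncKO skin (adjusted p = 0.681, limma) and -0.52 ± 0.32 in miR-205 KO skin (adjusted p = 0.288, limma), and the groups overlapped in both. Dgat2, which completes triglycerides, read 8742, 14484 and 10453 in lncKO skin, 8437, 10880 and 11663 in miR-205 KO skin and 5093, 9300 and 11184 in wild-type skin. Its log2 fold changes were 0.44 ± 0.30 in lncKO skin (adjusted p = 0.345, limma) and 0.34 ± 0.30 in miR-205 KO skin (adjusted p = 0.475, limma), again with overlapping groups.

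Mc5r, the receptor whose loss in mice lowers sebum output, had the widest spread of the 8 within wild-type skin. It read 723, 416 and 421 in lncKO skin, 355, 465 and 451 in miR-205 KO skin and 73, 241 and 1103 in wild-type skin. The knockout arrays sat inside the wild-type range, which spanned 15.1-fold. The log2 fold change was 0.90 ± 0.68 in lncKO skin (adjusted p = 0.388, limma) and 0.65 ± 0.68 in miR-205 KO skin (adjusted p = 0.548, limma). These values depended on both wild type 3 and wild type 1. Without wild type 3 they were 1.92 (adjusted p = 0.0138) in lncKO skin and 1.67 (adjusted p = 0.0246, limma) in miR-205 KO skin, past the threshold. Without wild type 1 the signs turned, to -0.04 in lncKO skin and -0.29 in miR-205 KO skin. On the pituitary arrays Mc5r was between 6 and 9.

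**Figure D2:**
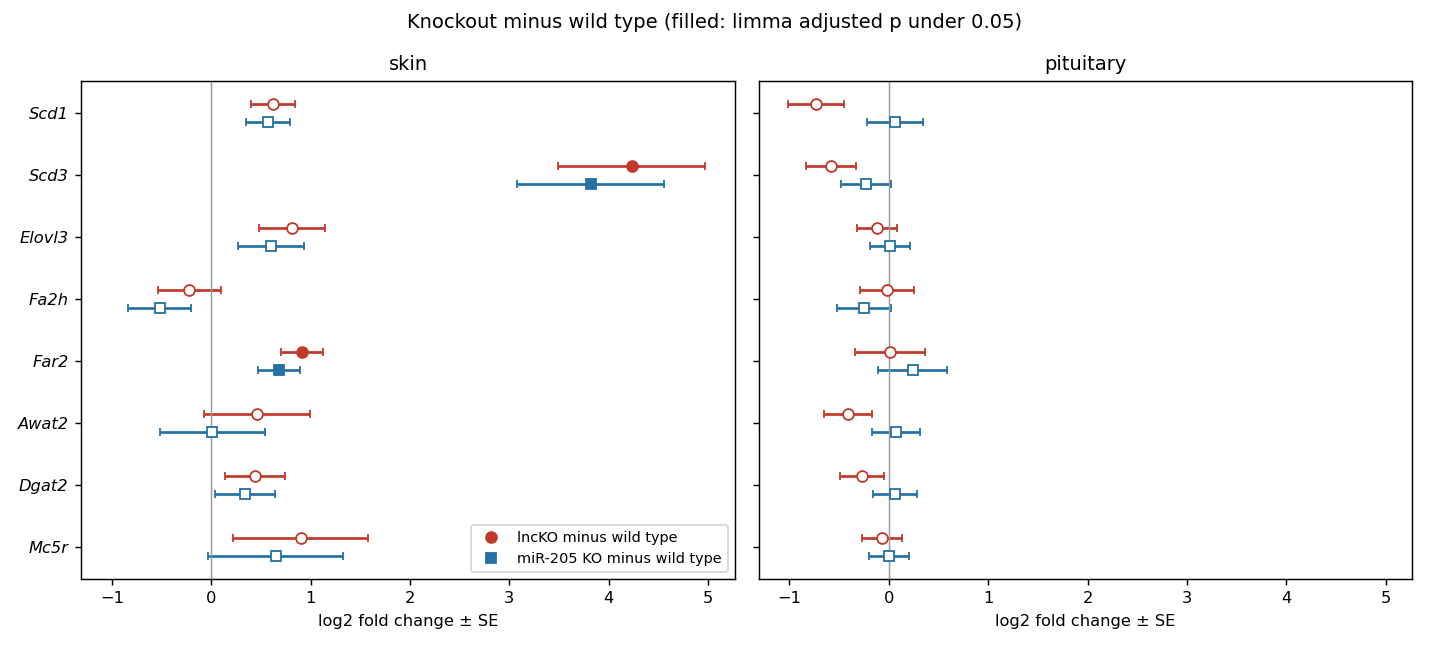
Log2 fold change ± SE (horizontal axis) of the 8 genes in lncKO (circles) and miR-205 KO (squares) minus wild type, in skin on the left and pituitary on the right, with n = 3 arrays per group. Filled symbols passed an adjusted p of 0.05 in limma. Scd3 at 4.23 and 3.82 and Far2 at 0.91 and 0.68 in skin are the filled ones.

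The 2 knockouts were not told apart by these genes in skin. Of the 8 genes, 0 passed the test of lncKO against miR-205 KO skin, where 0% of all probe sets passed by limma and 637 had an unadjusted p under 0.05, none of them a member. The log2 differences were between 0.05 and 0.45, all above 0, with 95% intervals that together ran from -1.20 to 2.00. The interval was narrowest for Far2, from -0.22 to 0.67, although all 3 lncKO arrays lay above all 3 miR-205 KO arrays for this gene (0.23 ± 0.21, adjusted p = 1, limma). The share of all probe sets that separated in this way was not counted. For Scd3 the interval ran from -1.18 to 2.00, which does not show that the knockouts are alike for this gene.

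In pituitary, 0 of the 8 passed in lncKO against wild type (0.700% of all probe sets passed in either direction), 0 in miR-205 KO against wild type (0.107%) and 0 in lncKO against miR-205 KO (0.291%). At an unadjusted p under 0.05 by limma, 2 of the 8 did in lncKO against wild type, as did 2447 of all 19572 probe sets. The 2 were Scd1 and Scd3, both lower. Scd3 differed by -0.58 ± 0.25 there (adjusted p = 0.358, limma). In miR-205 KO against wild type 0 of the 8 did, beside 1462 of all probe sets. In lncKO against miR-205 KO 1 did, beside 2182 of all probe sets, and it was Scd1 (-0.79 ± 0.28, adjusted p = 0.315, limma). The median log2 fold change of the 8 in pituitary was -0.19 in lncKO and 0.04 in miR-205 KO, beside 0.01 over all probe sets in each.

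Between the wild-type tissues, 7 of the 8 were higher in skin than in pituitary, where 26.4% of all probe sets were. The differences were 12.52 ± 0.30 for Far2, 11.28 ± 0.29 for Elovl3, 9.42 ± 0.31 for Fa2h, 7.03 ± 0.25 for Scd1, 5.08 ± 0.56 for Mc5r, 4.45 ± 0.45 for Awat2 and 3.96 ± 0.28 for Dgat2 on the log2 scale, the largest adjusted p among them being 1.22e-07 (limma). For Elovl3 and Mc5r all pituitary arrays were at or below 16, and with values below 16 set to 16 the differences were 10.26 for Elovl3 and 4.07 for Mc5r, which are lower bounds. Of the measured members only Scd1, Scd3 and Dgat2 were above an intensity of 100 in pituitary. The knockout effect differed between the tissues for 2 of the 8 in lncKO, Scd1 and Scd3 (3.37% of all probe sets were called in that direction), and for Scd3 alone in miR-205 KO (3.69%). Far2, which passed in skin and not in pituitary, was not among them: the differences were 0.90 ± 0.42 for lncKO (adjusted p = 0.194, limma) and 0.44 ± 0.42 for miR-205 KO (adjusted p = 0.55, limma). Far2 read only 21 to 59 in pituitary, with group SDs of 0.38 to 0.76 beside 0.09 to 0.22 in skin. The fit of all 18 arrays pools these spreads into 1 error.

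The members did not all vary together from array to array within skin. Over the 9 skin arrays, 20 of the 28 pairs of members had a Pearson correlation of log2 intensity above 0, and after each group's mean was removed, which leaves 6 degrees of freedom, 15 of 28 did. Scd3 and Elovl3 correlated at 0.22 over the 9 arrays and at -0.96 with group means removed: inside each genotype, the array with the most Scd3 had the least Elovl3. Awat2 and Fa2h correlated at -0.75 and at -0.91 with group means removed. Scd1 and Dgat2 correlated at 0.77 and 0.84, and Scd1 and Scd3 at 0.85 and 0.36. These pairs were picked after their values were seen, all values of a pair come from the same arrays and share each array's scaling, and the correlations are given as a description.

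**Figure D3:**
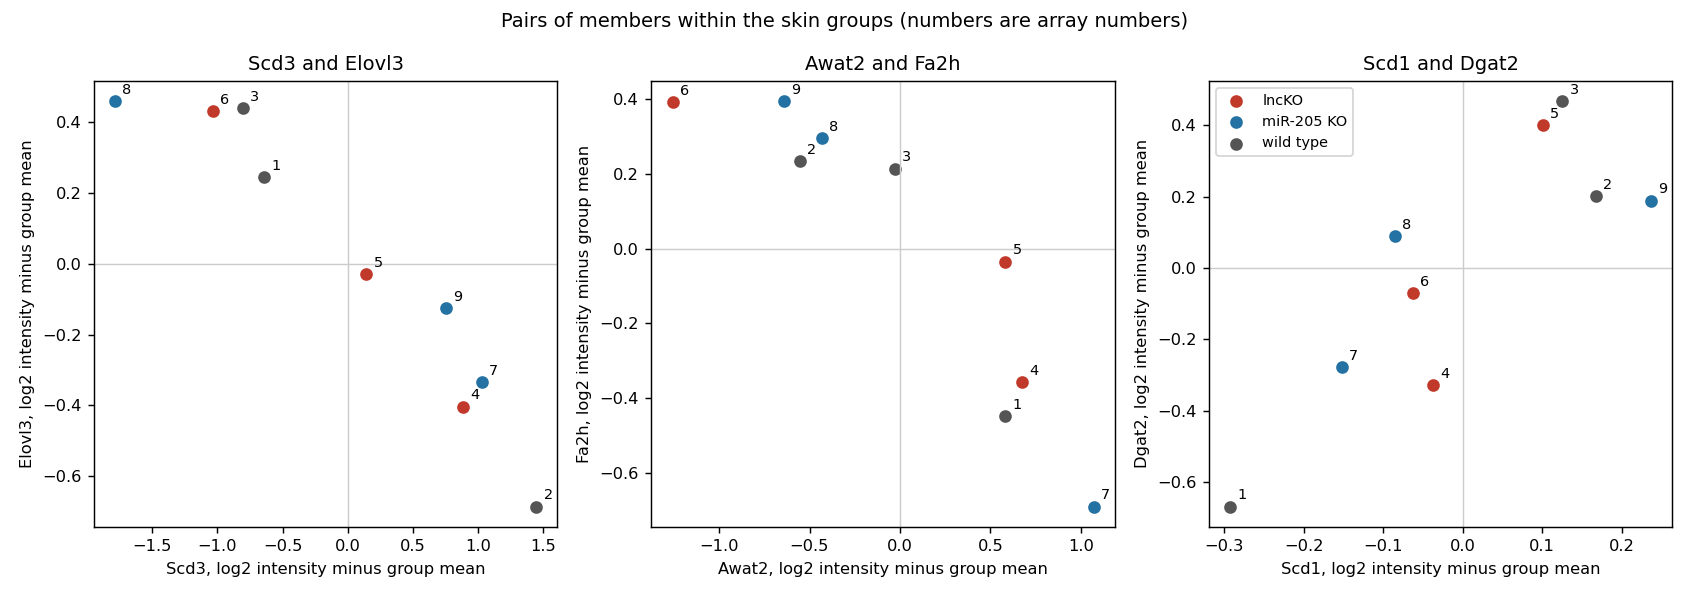
Log2 intensity minus the mean of the group for 3 pairs of members on the 9 skin arrays, with lncKO, miR-205 KO and wild type by colour and array numbers beside the points. Scd3 and Elovl3 (r = -0.96) and Awat2 and Fa2h (r = -0.91) run against each other, and Scd1 and Dgat2 (r = 0.84) run together.

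The genes most like Scd3 over the 9 skin arrays, out of 11000 with a mean intensity of at least 64, were Coprs (r = 0.97), Cep120 (0.96), Zfp318 (0.96), Smarca5 (0.95) and Nrep (0.95). Nrep lay between 11857 and 24303 in lncKO skin, between 8413 and 27832 in miR-205 KO skin and between 1370 and 2096 in wild-type skin. Group means were not removed in this search, so it favoured genes whose groups separate as those of Scd3 did. The genes most like the mean of the 7 members that were higher in skin than in pituitary were Lvrn (0.97), F3 (0.96), Zc3h12c (0.93), Wdr20 (0.93) and Fbxl21 (0.93). These are Pearson correlations over 9 arrays that share their scaling.

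Sebaceous markers outside the list were set beside the members. Of 9 such genes 8 were measured. In lncKO skin 4 were higher and 0 lower, and in miR-205 KO skin 3 were higher and 0 lower, with medians of 0.45 and 0.28. Over all probe sets 6.21% were called higher and 9.17% lower in lncKO skin, and 6.79% and 10.0% in miR-205 KO skin. These shares stand beside the counts of every list below. The lists share genes: Pparg, called in both knockouts, is given with the regulators. Plin2, Acsbg1, Awat1 and Dgat2l6 are also in the list for esters and droplets. Mgst1, a microsomal glutathione transferase abundant in sebocytes, read 249118, 278397 and 238568 in lncKO skin, 225236, 234104 and 257240 in miR-205 KO skin and 129648, 117507 and 135278 in wild-type skin (1.00 ± 0.20, adjusted p = 0.00585 in lncKO skin, and 0.91 ± 0.20, adjusted p = 0.00891 in miR-205 KO skin, limma). Cidea, a lipid droplet protein of sebocytes and of brown fat, was higher by 0.98 ± 0.22 (adjusted p = 0.0122) and 0.74 ± 0.22 (adjusted p = 0.0385, limma). The duct keratin Krt79 was higher in lncKO skin (0.67 ± 0.20, adjusted p = 0.0404) and did not pass in miR-205 KO skin (0.50 ± 0.20, adjusted p = 0.109, limma). The Krt79 call in lncKO skin was lost under 9 of 17 alternatives and the Cidea call in miR-205 KO skin under 8, leaving out single arrays included. The Mgst1 call was lost under 1 in lncKO skin and under 2 in miR-205 KO skin, quantile normalization among the 2. Awat1, a relative of Awat2, stood at -0.72 ± 0.45 in lncKO skin (adjusted p = 0.303) and -1.29 ± 0.45 in miR-205 KO skin (adjusted p = 0.0675, limma), on the other side of 0 from the called markers. Dgat2l6 and Acsbg1 had mean log2 intensities of 10.24 and 14.15 in miR-205 KO skin, below the 10.46 and 14.38 of wild type. In lncKO skin they lay above wild type, at 10.63 and 14.61. Plin2 lay above wild type in both knockouts.

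Regulators of lipid genes were represented by 10 measured genes of 14 listed. In lncKO skin 2 were higher and 0 lower, and in miR-205 KO skin 2 were higher and 1 lower. Pparg, the nuclear receptor that drives sebocyte and fat cell differentiation, read 8520, 7941 and 9579 in lncKO skin, 10654, 9638 and 7503 in miR-205 KO skin and 5119, 5039 and 4336 in wild-type skin. Its log2 fold change was 0.84 ± 0.21 (adjusted p = 0.0194) in lncKO skin and 0.93 ± 0.21 (adjusted p = 0.012, limma) in miR-205 KO skin. Nr1h3, the oxysterol receptor LXR alpha that turns on Scd1 in liver, was dim but separated, with 143, 165 and 178 in lncKO skin, 233, 180 and 178 in miR-205 KO skin and 68, 104 and 53 in wild-type skin (1.16 ± 0.26, adjusted p = 0.0112, and 1.44 ± 0.26, adjusted p = 0.00367, limma). Insig1, which holds back sterol-regulated transcription, was lower in miR-205 KO skin (-1.08 ± 0.28, adjusted p = 0.0194) and did not pass in lncKO skin (-0.68 ± 0.28, adjusted p = 0.115, limma). The Insig1 call was lost under 4 of 17 alternatives. The Pparg call was lost under 4 in lncKO skin and 2 in miR-205 KO skin, single arrays left out included, and the Nr1h3 calls under none.

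The wider fatty acid pathway did not move one way. Outside the members, 20 of 23 listed genes for synthesis, elongation and desaturation were measured. In lncKO skin 3 were higher and 3 lower, where 6.21% and 9.17% of all probe sets were. In miR-205 KO skin 2 were higher and 3 lower, where 6.79% and 10.0% of all probe sets were. The medians were -0.11 in lncKO skin and -0.14 in miR-205 KO skin, beside -0.07 over all probe sets in each. Elongase genes parted: Elovl4, which makes very long chains, was higher (0.96 ± 0.22, adjusted p = 0.0128, and 0.86 ± 0.22, adjusted p = 0.0195), as was Elovl6, which lengthens palmitate (0.97 ± 0.29, adjusted p = 0.0384, and 1.28 ± 0.29, adjusted p = 0.0107), while Elovl1 was lower (-1.23 ± 0.23, adjusted p = 0.0043, and -1.23 ± 0.23, adjusted p = 0.00411), in lncKO and miR-205 KO skin by limma. The Elovl6 call in lncKO skin was lost under 10 of 17 alternatives and the Elovl1 calls under none. Both Elovl4 calls were lost after quantile normalization, with values down to 0.55 in lncKO skin and 0.46 in miR-205 KO skin over the 17 alternatives, and the miR-205 KO call was lost under 6, which include leaving out wild type 1 or 2 or miR-205 KO 7 or 8. Acly, which supplies cytosolic acetyl-CoA, was lower in both (-1.04 ± 0.21, adjusted p = 0.00648, and -1.13 ± 0.21, adjusted p = 0.00408, limma), and so was Tecr, which completes the elongation cycle (-1.07 ± 0.26, adjusted p = 0.0151, and -1.26 ± 0.26, adjusted p = 0.00631, limma). Acsl5, which activates fatty acids, was higher in lncKO skin (1.13 ± 0.27, adjusted p = 0.0158) and did not pass in miR-205 KO skin (0.83 ± 0.27, adjusted p = 0.0549, limma). The Acsl5 call was lost under 4 of 17 alternatives and the Tecr call in lncKO skin under 2. Each Acly call was lost under 1. Fasn, the fatty acid synthase itself, stood at -0.25 ± 0.31 (adjusted p = 0.62) in lncKO skin and -0.12 ± 0.31 (adjusted p = 0.83, limma) in miR-205 KO skin.

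Among 18 measured genes of 19 for esters and droplets outside the members, 2 were higher and 1 lower in each knockout skin. Plin4, a lipid droplet coat protein abundant in fat cells, read 1192, 1205 and 1800 in lncKO skin, 992, 1201 and 1428 in miR-205 KO skin and 217, 586 and 295 in wild-type skin, with log2 fold changes of 2.04 ± 0.33 (adjusted p = 0.00207) and 1.83 ± 0.33 (adjusted p = 0.0036, limma). Mogat2, a monoacylglycerol acyltransferase, was higher at intensities of 31 or less (0.68 ± 0.21, adjusted p = 0.0477 in lncKO skin, and 0.73 ± 0.21, adjusted p = 0.033 in miR-205 KO skin, limma). Dbi, which carries acyl-CoA, was lower (-0.78 ± 0.25, adjusted p = 0.0489, and -0.98 ± 0.25, adjusted p = 0.0174, limma). The Mogat2 call was lost under 9 of 16 alternatives in lncKO skin and 6 of 16 in miR-205 KO skin, and the Dbi call under 9 and 3 of 17. Among 14 measured sphingolipid genes of 15, 1 was higher and 2 were lower in each knockout skin. Cers3, the ceramide synthase of the epidermal barrier, read 596, 338 and 465 in lncKO skin, 316, 340 and 250 in miR-205 KO skin and 1636, 1796 and 1548 in wild-type skin (-1.87 ± 0.24, adjusted p = 5.52e-04, and -2.47 ± 0.24, adjusted p = 1.14e-04, limma). It shares with Fa2h the sphingolipid pathway, and Fa2h did not pass. Cers5, which makes shorter ceramides, was higher in both (1.29 ± 0.26, adjusted p = 0.00677, and 0.88 ± 0.26, adjusted p = 0.0371, limma). Its call in miR-205 KO skin was lost under 8 of 17 alternatives, among them quantile normalization and leaving out wild type 1 or 2 or miR-205 KO 7 or 8, with values down to 0.40 (adjusted p up to 0.515). The second lower gene was Degs1 in lncKO skin (-0.80 ± 0.22, adjusted p = 0.0278, limma) and Cers6 in miR-205 KO skin (-0.96 ± 0.26, adjusted p = 0.0241, limma). The Degs1 and Cers6 calls were each lost under 5 of 17 alternatives, single arrays left out included.

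Of the melanocortin ligands, receptors and accessory genes beside Mc5r, 7 of 9 were measured, and 1 was higher in lncKO skin and 0 changed in miR-205 KO skin. The called gene was Mc2r, the corticotropin receptor, at 337, 268 and 352 in lncKO skin and 72, 219 and 171 in wild-type skin (1.19 ± 0.34, adjusted p = 0.0333, limma). It stood at 237, 267 and 302 in miR-205 KO skin (0.94 ± 0.34, adjusted p = 0.0755, limma), and the lncKO call was lost under 8 of 17 alternatives. Of the other receptors, Mc1r read between 15 and 37 on the 9 skin arrays, Mc3r between 8 and 19 and Mc4r between 5 and 11. In pituitary 0 genes of these pathway lists passed in either knockout, where 0.700% of all probe sets passed in lncKO and 0.107% in miR-205 KO.

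**Figure D4:**
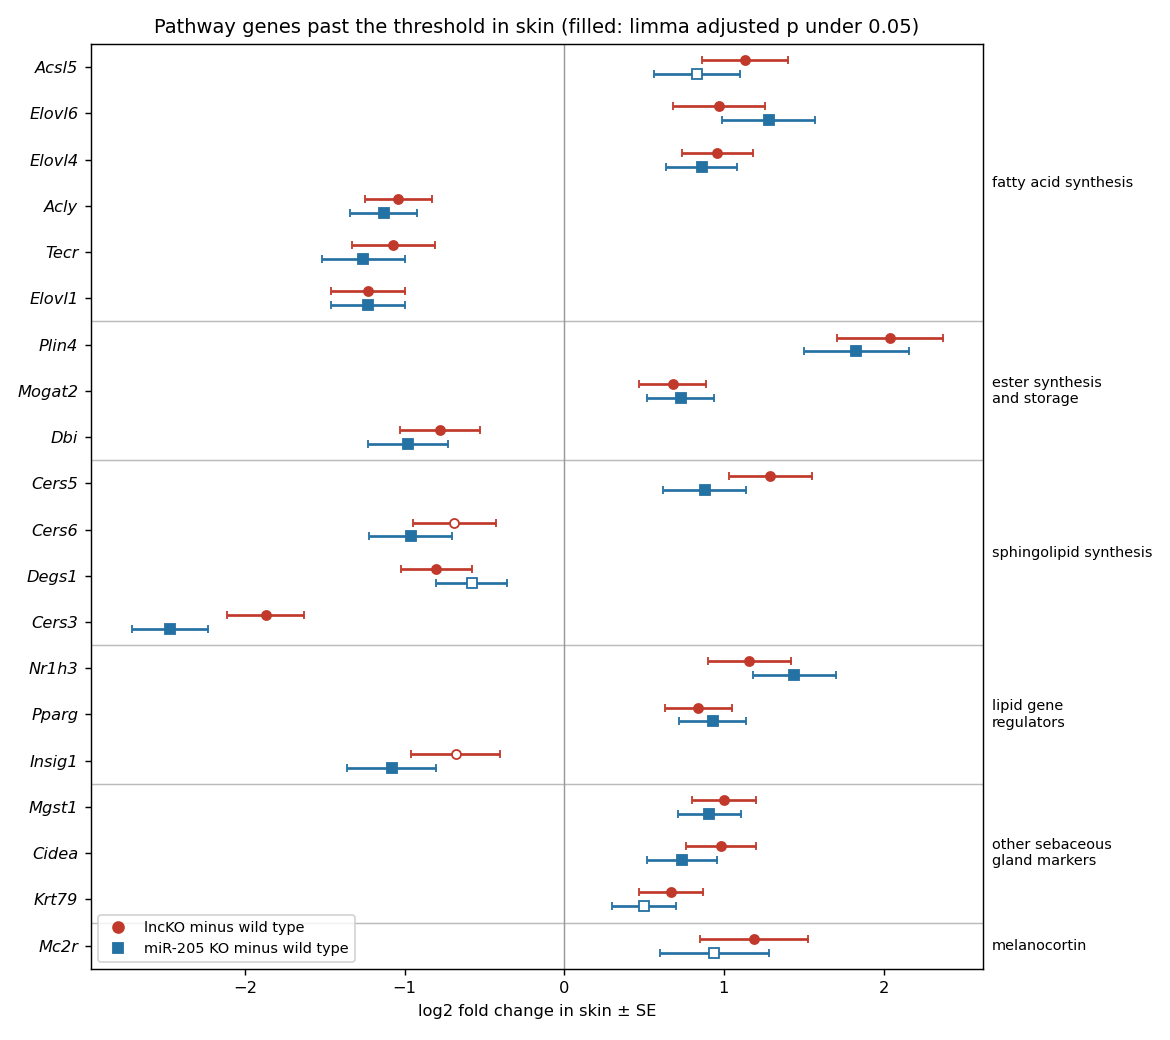
Log2 fold change in skin ± SE (horizontal axis) of the genes of the 6 lipid, melanocortin and sebaceous lists outside the members that passed in at least 1 knockout, grouped by list, for lncKO (circles) and miR-205 KO (squares) minus wild type, n = 3 arrays per group. Filled symbols passed an adjusted p of 0.05 in limma. Plin4 at 2.04 and 1.83 stands highest and Cers3 at -1.87 and -2.47 lowest among the genes of these lists.

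Markers of other cells in the tissue differed between the same groups, and their part in the results above was not tested. Of 7 measured adipocyte markers, 5 were higher in each knockout skin and 0 lower, and their mean log2 intensity was 11.55 to 12.30 in lncKO skin, 11.52 to 12.48 in miR-205 KO skin and 9.60 to 11.17 in wild-type skin. The 5 were Lep, Cidec, Fabp4, Retn and Adig. The Retn call was lost under 12 of 17 alternatives in lncKO skin and 8 in miR-205 KO skin, and the Fabp4 call under 7 and 4, single arrays left out included, while those of Lep and Adig were lost under none. The leptin gene Lep was higher by 2.37 ± 0.40 (adjusted p = 0.00255) and 2.28 ± 0.40 (adjusted p = 0.0031, limma). Of 4 brown adipocyte markers, 1 was higher in lncKO skin and 2 in miR-205 KO skin, and 0 were lower. The medians were 0.42 and 0.67. Cidea was called in both. Dio2 was called in miR-205 KO skin only, at 201 to 309 against 124 to 141 in wild-type skin. The Dio2 call was lost under 4 of 17 alternatives. The list also holds the member Elovl3. Ucp1, which defines brown fat, lay between 5 and 16 on every skin array. Of 5 cartilage markers 3 were higher in each knockout, and of 5 skeletal muscle markers 2 were higher in lncKO skin and 3 in miR-205 KO skin. The muscle gene Ckm was called in miR-205 KO skin only, and that call was lost under 9 of 17 alternatives. The call of the cartilage gene Col9a1 was lost under 3 in lncKO skin and 2 in miR-205 KO skin. The mean over the 8 other sebaceous markers was 14.24 to 14.29 in lncKO skin, 13.92 to 14.17 in miR-205 KO skin and 13.64 to 14.04 in wild-type skin. The mean of 4 basal keratinocyte markers was 15.08 to 15.36 in lncKO skin, 15.17 to 15.21 in miR-205 KO skin and 15.05 to 15.24 in wild-type skin. Of 4 measured markers of differentiated keratinocytes 1 was higher in each knockout and 0 were lower. It was the keratin gene Krt10 (0.94 ± 0.20, adjusted p = 0.00832, and 0.97 ± 0.20, adjusted p = 0.0067, limma). The median log2 fold change of the 4 was -0.13 in lncKO skin and 0.34 in miR-205 KO skin. Mean log2 intensities of Krt1, Lor and Ivl were 15.09, 9.46 and 12.35 in lncKO skin. They were 15.97, 9.52 and 12.66 in miR-205 KO skin and 15.21, 9.60 and 13.03 in wild-type skin. Krt10 lay between 619688 and 678979 in lncKO skin, between 620055 and 753341 in miR-205 KO skin and between 314730 and 355555 in wild-type skin. Each Krt10 call was lost under 2 of 17 alternatives, quantile normalization among them. Values went down to 0.45 in lncKO skin and 0.53 in miR-205 KO skin.

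Hair markers split the wild-type arrays. The mean log2 intensity of 9 hair shaft and root sheath genes was 4.65 to 5.56 in lncKO skin and 4.94 to 5.28 in miR-205 KO skin. It was 8.03 on wild type 1 and 8.71 on wild type 2, but 4.90 on wild type 3. With wild type 1 and 2 both left out, an alternative chosen after the data were seen that assumes wild type 3 varies like the other groups, Scd3 remained higher (5.04, adjusted p = 0.0147 in lncKO skin, and 4.63, adjusted p = 0.0191 in miR-205 KO skin, limma). Far2 then missed the threshold (0.66, adjusted p = 0.204, and 0.43, adjusted p = 0.397), and Mc5r turned to -1.14 in lncKO skin and -1.39 in miR-205 KO skin. The adipocyte means of both left-out arrays, 9.60 and 11.17, lay below all knockout arrays, as did the 10.30 of wild type 3.

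**Figure D5:**
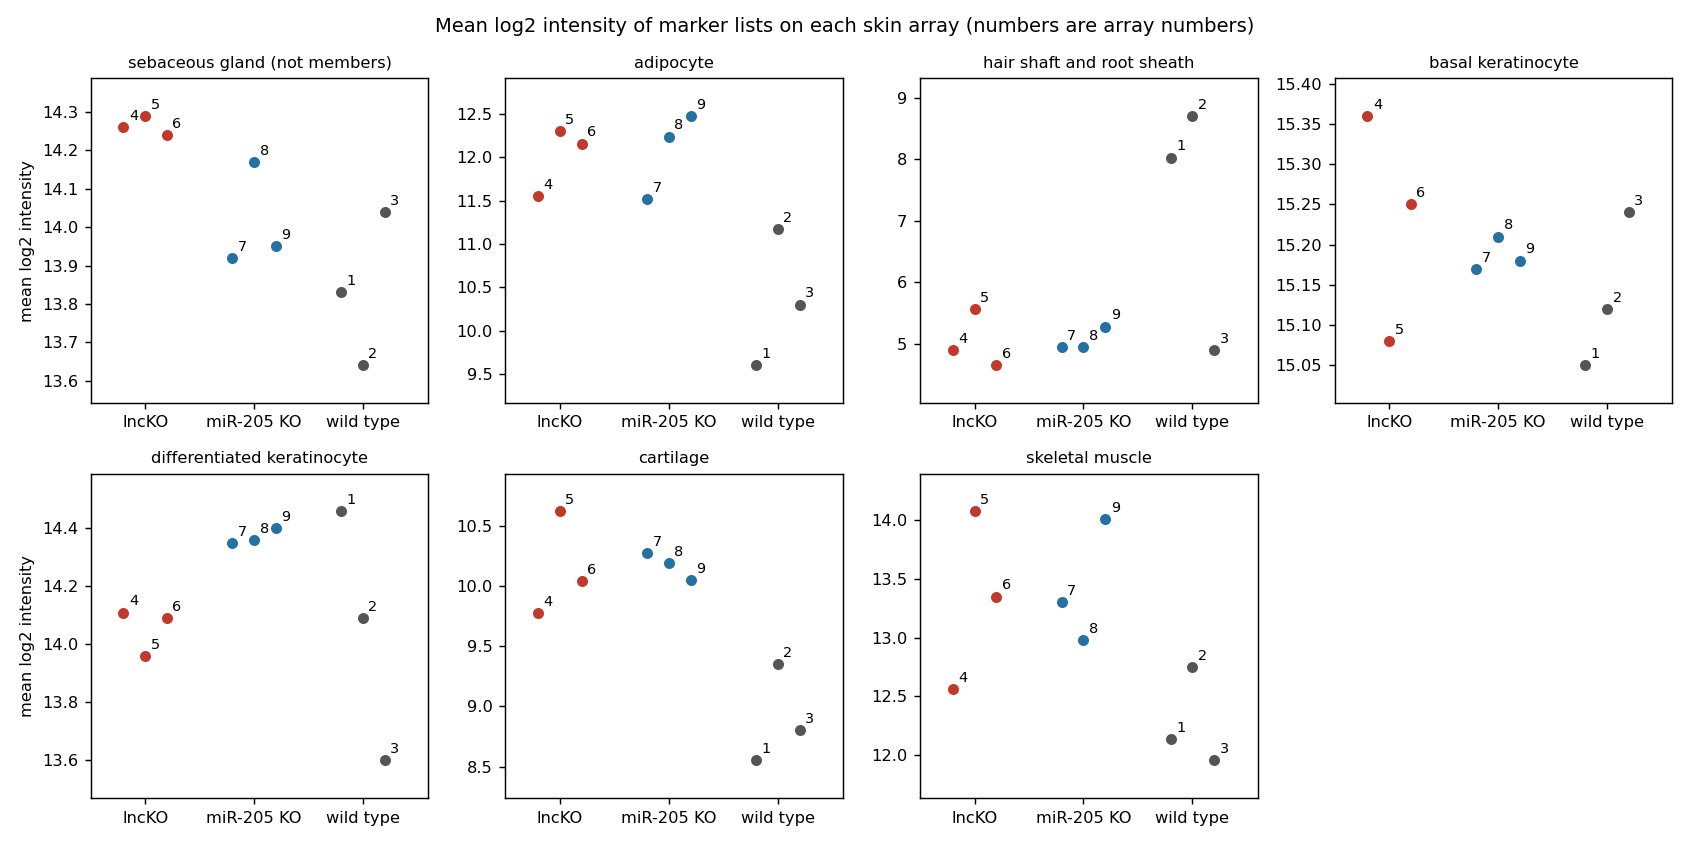
Mean log2 intensity (vertical axis, scaled per panel) of marker lists on each skin array, with lncKO, miR-205 KO and wild type from left to right and array numbers beside the points. Adipocyte markers on the 6 knockout arrays (11.52 to 12.48) lie above the 3 wild-type arrays (9.60 to 11.17), and hair markers are high on wild type 1 and 2 only (8.03 and 8.71).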

How the data were processed

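RNA of 18 samples was measured on arrays. The authors deposited 1 intensity per probe set and array, whole numbers from 4 to 1243875 on a linear scale, for which no source used here gives the background correction, summarisation or normalization. Per the labels' protocols, RNA was column-purified from frozen tissue and amplified before labelling. The 22206 probe sets were named from the platform's annotation, 19572 with 1 symbol and 2634 with none. Intensities were log2 transformed with no pseudocount and no further scaling. limma 3.58.1 in R 4.3.3 (lmFit and eBayes, two-sided) was fitted to the 9 arrays of a tissue with a term per group, leaving 6 residual degrees of freedom, and to all 18 arrays (12 degrees of freedom) for tissue differences and interactions, with Benjamini-Hochberg adjustment over 19572 probe sets. The fit was tested on simulated data. Errors are SE for differences and SD for levels. Signal is limited by array number. Alternatives covered scaling, low values, variance models, the arrays fitted and single arrays left out. Members, pathway lists and marker lists were chosen with earlier results of these data known. Genes named outside the members were up to 3 per list and direction by smallest p, and genes of a list named by level.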

Additional observations from a re-analysis of the deposited data

Results flagged for a closer look

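The knockout effect differed between skin and pituitary, by a test of the difference itself in a limma fit of all 18 arrays, for 2 members. For Scd3 the effect in skin minus that in pituitary was 4.82 ± 0.87 on the log2 scale in lncKO (adjusted p = 0.00214) and 4.05 ± 0.87 in miR-205 KO (adjusted p = 0.00675), and in each it was the highest of the 19572 probe sets. For Scd1 the difference was 1.35 ± 0.36 in lncKO (adjusted p = 0.0233), made of 0.62 in skin and -0.73 in pituitary, neither past the threshold on its own. The skin arrays carry no signal of Y chromosome genes and the pituitary arrays do, so a difference by tissue and a difference by sex cannot be told apart.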

How the results depend on the processing

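Across the 36 results for single members that were recomputed, 616 alternative values were obtained, of which 579 kept direction and side of the threshold. No sign changed among the 240 alternative values of the 14 results past the threshold. These 14 include the 7 differences between wild-type tissues, of 3.96 to 12.52, and Scd3 effects of 3.82 to 4.82. For values so far from 0, an unchanged sign is a weak check. The count of members passing in lncKO skin (2) fell to 1 after quantile normalization and with wild type 1 and 2 both left out, and was 2 to 3 with single arrays left out. The count in miR-205 KO skin (2) was 1 after quantile normalization, with a floor at 16, with only the groups compared, with all 18 arrays in one fit and with wild type 1 and 2 out, and 1 to 3 with single arrays left out. Under the floor it was Scd3 that was lost (3.82, adjusted p = 0.0606, limma), and in the others Far2. The lncKO interaction count (2) was 1 after quantile normalization and 1 to 3 with single arrays left out, and the miR-205 KO interaction count (1) was 1 to 2. The tissue count was 7 throughout. Scd1 passed in lncKO skin after median centring (0.70, adjusted p = 0.0474), with 16 added (adjusted p = 0.036) and with a variance trend and robust estimation together (adjusted p = 0.0224), and in miR-205 KO skin with 16 added (adjusted p = 0.0459) and with trend and robust estimation (adjusted p = 0.0318). Elovl3 passed in lncKO skin with all 18 arrays in one fit (0.81, adjusted p = 0.0492). With wild type 1 and 2 out, signs turned for Mc5r (-1.14 in lncKO and -1.39 in miR-205 KO skin), Dgat2 (-0.03 and -0.13) and Scd3 between the wild-type tissues (-0.25). With single arrays left out, Mc5r ranged from -0.04 to 1.92 in lncKO skin and from -0.29 to 1.67 in miR-205 KO skin, Awat2 in miR-205 KO skin from -0.53 to 0.33, Scd3 between the tissues from -0.17 to 0.96, and lncKO minus miR-205 KO skin from -0.48 to 0.93 for Scd3 and from -0.02 to 0.17 for Scd1. The causes of these changes were not tested. No paired analysis was made, because the labels do not say whether any skin and pituitary samples share a mouse. The fits of all 18 arrays treat every array as independent.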
